A study of Mus musculus with 4 samples.

Results

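The 39 Hox genes of the mouse were followed in otic vesicles, the epithelial sacs that form the inner ear. The members were all protein-coding genes of the deposited table whose symbol, mapped from the Ensembl ID, was Hoxa, Hoxb, Hoxc or Hoxd with a number. They were 39 of 34866 genes in all, 21850 of them protein-coding, and no level of expression entered their choice. Total RNA came from C57/BL6 embryos at embryonic day 11.5, with 2 libraries of Meis2 mutants (KO 1 and KO 2) and 2 of wild type (WT 1 and WT 2). The deleted part of Meis2, whether one or both alleles were mutated, any driver or Cre, and how many embryos went into a library do not appear in the labels. All p-values therefore rest on the spread among 4 libraries, some of which may be technical. Values are in TPM, a level scaled by transcript length and to the same total in every library, which keeps no depth. All 16 otic epithelium markers averaged 1 TPM or more, with the otoconial protein gene Oc90 at 561 and 602 TPM in KO 1 and KO 2, against 912 and 724 TPM in WT 1 and WT 2.

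Hox genes encode homeodomain transcription factors that give cells their position along the head to tail axis. They lie in 4 clusters and fall into 13 paralogue groups, and within a cluster the genes at the 3′ end are switched on earlier and reach further towards the head than those at the 5′ end. Meis and Pbx proteins, homeodomain factors of the TALE class, bind DNA together with Hox proteins as cofactors. At the level of the ear the hindbrain and the neural crest that fills the neighbouring pharyngeal arches use genes of the 3′ end. Retinoic acid activates those genes, and Polycomb and Trithorax proteins keep the clusters off or on.

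Both of the upstream sequences shown here hold a motif of these cofactors. They belong to Hoxa2, the member with the highest level, and to Hoxb1, whose genotypes did not overlap. Capitals mark matches to TGACAG, the core bound by Meis proteins, and to TGATNNAT, bound by Pbx with Hox proteins, each searched on both strands in the 250 bases before the start site. The sequences are from RefSeq (GRCm38.p6) and run 5′ to 3′ on the strand of the gene, chr6:52164832-52165081 on the minus strand for Hoxa2 and chr11:96365508-96365757 on the plus strand for Hoxb1.
Hoxa2: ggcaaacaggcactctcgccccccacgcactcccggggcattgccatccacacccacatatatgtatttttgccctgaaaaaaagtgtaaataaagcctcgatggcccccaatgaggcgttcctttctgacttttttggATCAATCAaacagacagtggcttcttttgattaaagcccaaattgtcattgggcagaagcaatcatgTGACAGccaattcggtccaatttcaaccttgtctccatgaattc
Hoxb1: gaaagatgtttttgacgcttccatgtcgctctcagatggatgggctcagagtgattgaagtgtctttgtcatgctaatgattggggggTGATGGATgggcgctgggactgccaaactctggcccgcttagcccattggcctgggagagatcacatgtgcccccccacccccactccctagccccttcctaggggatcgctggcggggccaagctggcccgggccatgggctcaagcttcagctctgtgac

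In Hoxa2 the Meis match ended 38 bases before the start site and the Pbx-Hox match 103 bases before it, and the matches did not overlap. In Hoxb1 the Pbx-Hox match ended 154 bases before the start site. It lies within sequence upstream of Hoxb1 that is well known as an autoregulatory element bound by Hox and Pbx proteins. RefSeq windows were at hand for 22 of the 39 genes, in 24 windows. TGACAG occurred in 2 of these (8.33%, Hoxa2 and Hoxa3), against 15.9% of 32851 windows of all genes. TGATNNAT occurred in 4 (16.7%, Hoxa2, Hoxb1, Hoxb8 and Hoxd11), against 7.68% of all windows. Pairs of AGGTCA in the same direction with 5 bases between them, a site of retinoic acid receptors, occurred in 0 Hox windows and in 3 of all windows. Hox windows held a median of 12.5 CG dinucleotides, from 2 to 35, against a median of 6 over all windows. A match describes the letters only, and binding was not measured.

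The Hox level lay almost entirely in paralogue groups 1 to 3, at the 3′ ends of the Hoxa and Hoxb clusters. The 8 genes of these groups held 97.0% of the summed Hox TPM and the 31 genes of groups 4 to 13 the other 2.98%. An average of 1 TPM or more was reached by 4 of 39 Hox genes (10.3%), against 61.8% of protein-coding genes, and one of 0.1 TPM or more by 9 (23.1%), against 76.3%. Listed at 0 in every library were 7 members, which were Hoxa6, Hoxa11, Hoxb13, Hoxc6, Hoxc12, Hoxd12 and Hoxd13. A further 22 were above 0 in 1 to 3 libraries and 10 in all 4. At these low levels an absence cannot be told from a lack of depth, since the depth is unknown.

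**Figure D1:**
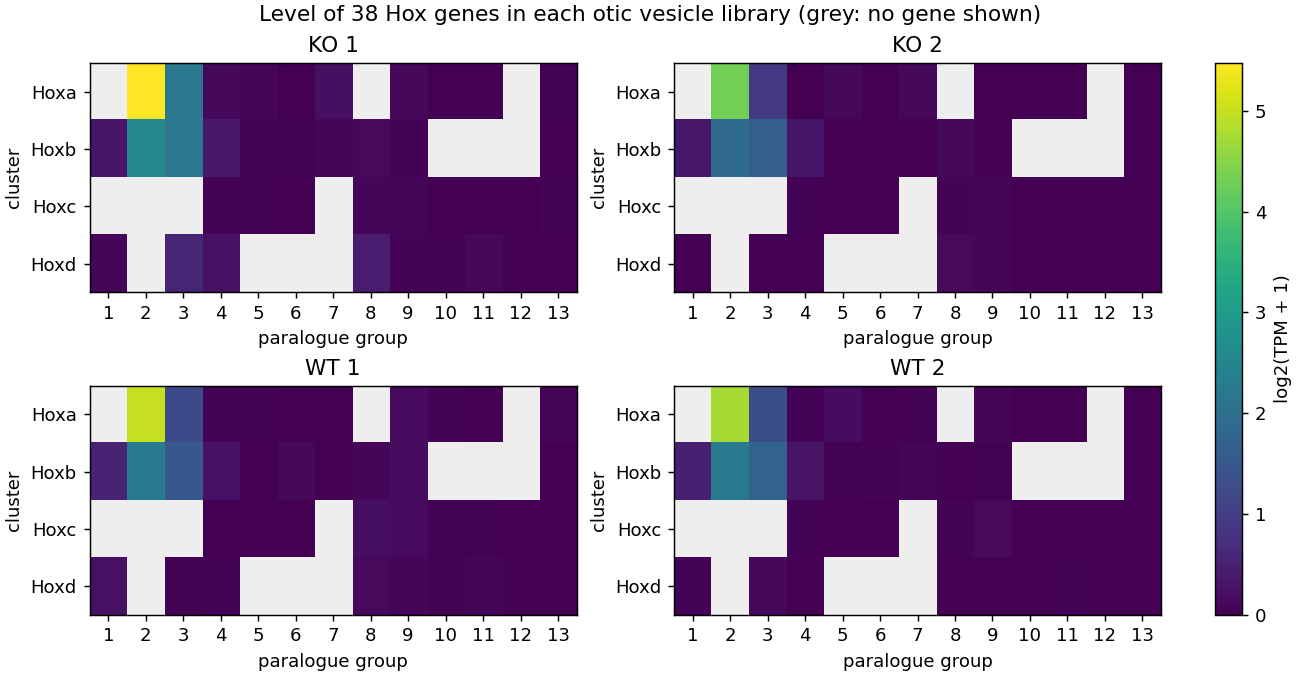
Level of 38 Hox genes, as log2(TPM + 1), by cluster (rows) and paralogue group (columns) in KO 1, KO 2, WT 1 and WT 2; grey cells show no gene. The bright cells sit in paralogue groups 2 and 3 of Hoxa and Hoxb in all 4 libraries, and Hoxa2 is the brightest, at 43.4 TPM in KO 1 and 18.8 TPM in KO 2.

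Paralogue group 2 carried 83.5% of the summed level, most of it from one gene. Hoxa2, which patterns the hindbrain and the crest of the second pharyngeal arch (ENSMUSG00000014704.10, chromosome 6, 52162417 to 52164831, GRCm38), was at 43.4 and 18.8 TPM in KO 1 and KO 2, against 30.8 and 25.8 TPM in WT 1 and WT 2. The KO libraries were the highest and the lowest of the 4, and both WT libraries lay between them. The means were 31.1 ± 17.4 TPM in KO and 28.3 ± 3.50 TPM in WT (SD, n = 2 each). Hoxa2 alone made up between 72.0% (KO 2) and 76.4% (WT 1) of the Hox total in each library, while that total itself ranged from 26.1 to 58.5 TPM. Hoxb2, its paralogue with a role in the facial part of the hindbrain (ENSMUSG00000075588.6, chromosome 11, 96350525 to 96354012), was at 4.81 and 2.77 TPM in KO 1 and KO 2, against 3.76 and 3.81 TPM in WT 1 and WT 2. KO 1 was again the highest and KO 2 the lowest, with both WT libraries between them. The ratio of Hoxa2 to Hoxb2 was 9.03 and 6.78 in KO 1 and KO 2, against 8.19 and 6.77 in WT 1 and WT 2.

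Paralogue group 3 carried 11.03% of the summed level. Hoxb3 (ENSMUSG00000048763.11, chromosome 11, 96323326 to 96347930) and Hoxa3 (ENSMUSG00000079560.13, chromosome 6, 52169062 to 52213336) act in the hindbrain and in crest behind the ear, and Hoxa3 is needed for thymus and parathyroid. Hoxb3 was at 3.47 and 2.14 TPM in KO 1 and KO 2, against 1.83 and 2.37 TPM in WT 1 and WT 2. Hoxa3 was at 3.51 and 0.907 TPM in KO 1 and KO 2, against 1.35 and 1.498 TPM in WT 1 and WT 2. KO 1 was again highest for both genes, and KO 2 was lowest for Hoxa3 but lay between the WT libraries for Hoxb3. Hoxa3 therefore varied most among the members averaging 1 TPM or more, 3.87-fold between the KO libraries, against 2.31-fold for Hoxa2, 1.73-fold for Hoxb2 and 1.62-fold for Hoxb3. The annotated Hoxa3 model spans Hoxa4, Hoxa5 and Hoxa6, so reads may be shared among these 4 genes; overlap of their exons was not tested. Such an overlap with another member touched 11 of the 39 models.

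Hoxd3, the last member of group 3, was at 0.488 TPM in KO 1 and listed at 0 in KO 2, against 0.0242 and 0.0863 TPM in WT 1 and WT 2. Its model overlaps that of Hoxd4, which was at 0.181 TPM in KO 1, 0.0428 TPM in WT 1 and listed at 0 in KO 2 and WT 2. Hoxd8, at 0.352 and 0.0980 TPM in KO 1 and KO 2, was at 0.106 TPM in WT 1 and listed at 0 in WT 2. These 3 neighbours were thus highest in KO 1, and the summed Hoxd level was 1.23 and 0.161 TPM in KO 1 and KO 2, against 0.508 and 0.154 TPM in WT 1 and WT 2.

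Paralogue group 1, whose genes act first in the hindbrain beside the forming ear, stood well below group 2. Hoxb1, which marks the rhombomere that gives rise to facial motor neurons (ENSMUSG00000018973.2, chromosome 11, 96365752 to 96368256), was at 0.258 and 0.273 TPM in KO 1 and KO 2, against 0.448 and 0.403 TPM in WT 1 and WT 2. The genotypes did not overlap, and both KO libraries were the lower ones. The ratio of the Hoxb1 means was 0.624, KO over WT. Hoxd1 was at 0.0677 TPM in KO 1 and listed at 0 in KO 2, against 0.181 and 0.0329 TPM in WT 1 and WT 2, so its genotypes overlapped.

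**Figure D2:**
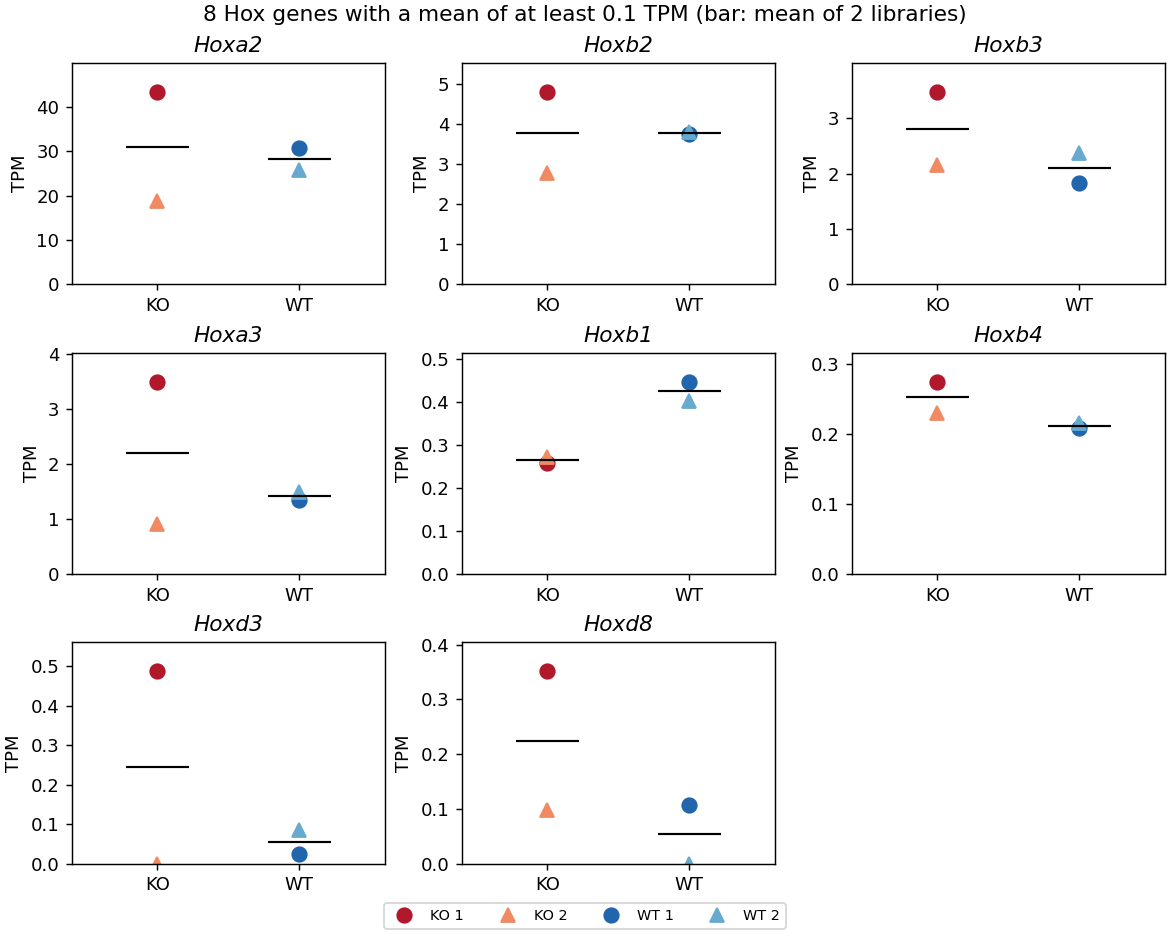
TPM of 8 Hox genes averaging 0.1 TPM or more, KO left and WT right in each panel, with a point per library and a bar at the mean of 2 libraries; each axis starts at 0. KO 1 is the highest library in every panel but that of Hoxb1, where both KO libraries (0.258 and 0.273 TPM) lie below both WT libraries (0.448 and 0.403 TPM).

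Along the Hoxa and Hoxb clusters the level was high at Hoxa2 and Hoxb2 and low from Hoxa4 and Hoxb4 on. Distances are between the 3′ ends of genes, counted from the 3′ end of the cluster. Hoxa2 lay at 6.83 kb and Hoxa3 at 13.5 kb, and the next gene, Hoxa4 at 34.1 kb, was at 0.0834 TPM in KO 1 and listed at 0 in KO 2, against 0.0348 and 0.0391 TPM in WT 1 and WT 2. In the Hoxb cluster Hoxb2 lay at 14.2 kb and Hoxb3 at 20.3 kb. Hoxb4 followed at 46.6 kb, with 0.275 and 0.231 TPM in KO 1 and KO 2, against 0.208 and 0.215 TPM in WT 1 and WT 2. Beyond Hoxb4 no Hoxb gene exceeded 0.135 TPM in any library, the value of Hoxb9 in WT 1. Hoxa2 and Hoxb2 stood above the genes on their 5′ side in all 4 libraries.

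**Figure D3:**
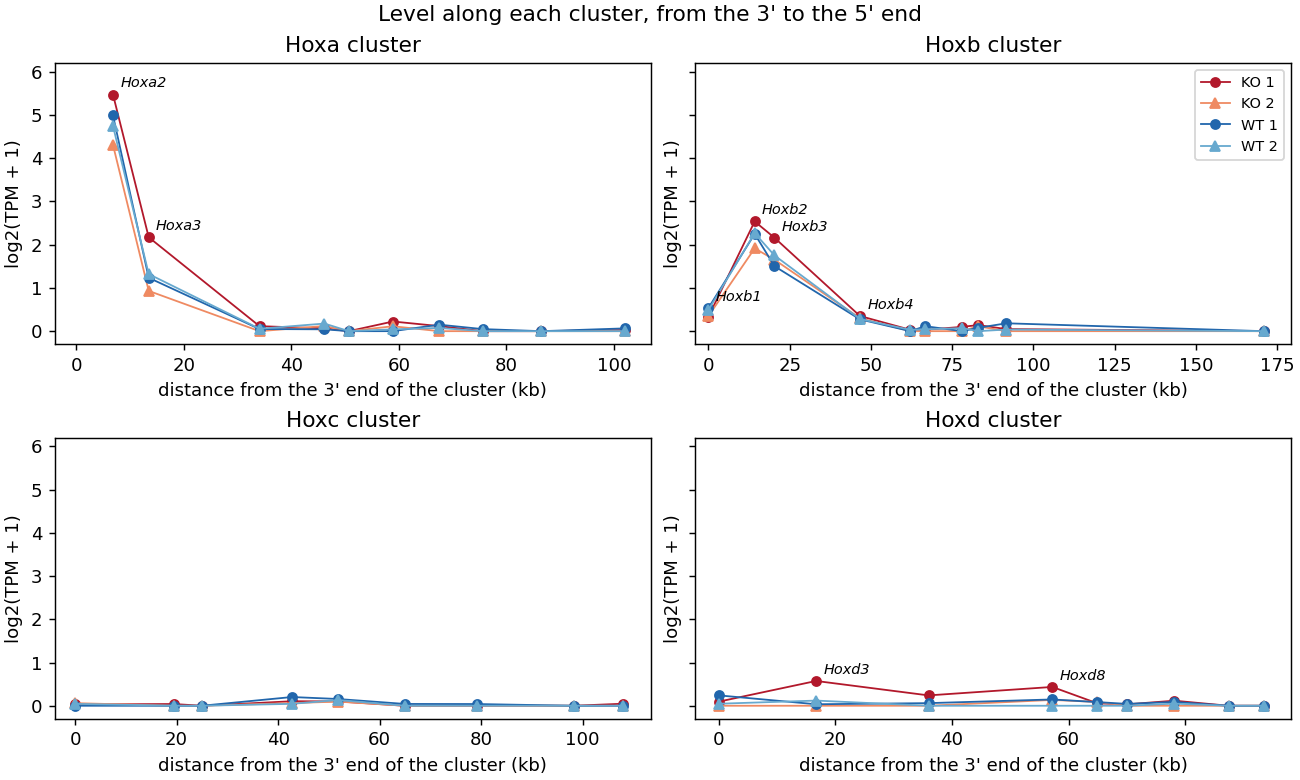
Level, as log2(TPM + 1), against distance from the 3′ end of the cluster in kb, for the 4 clusters, with a line per library. Among the genes shown in Hoxa and Hoxb the peak is at Hoxa2 (6.83 kb) and Hoxb2 (14.2 kb) in every library, while Hoxc and Hoxd stay near 0 apart from Hoxd3 and Hoxd8 in KO 1.

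The Hoxc and Hoxd clusters, whose genes mostly serve the trunk, limbs and genitals, were near 0. The 9 Hoxc genes together reached 0.230 and 0.155 TPM in KO 1 and KO 2, against 0.322 and 0.158 TPM in WT 1 and WT 2. Over all clusters, the 16 genes of paralogue groups 9 to 13, which specify lumbar, sacral and distal limb positions, summed to 0.389 and 0.132 TPM in KO 1 and KO 2, against 0.649 and 0.210 TPM in WT 1 and WT 2. In that class 5 of the 16 were listed at 0 in every library, and of the other 11, 8 were highest in WT 1 and 2 in KO 1. In paralogue groups 2 to 4 all 9 genes were above 0, and 8 of them were highest in KO 1. The higher total of groups 9 to 13 in WT 1 thus came with a different library order from that of groups 2 to 4.

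The coding genes beside the clusters ranged from near 0 to high levels. Outside Hoxa, the nearest gene on the 5′ side, the homeobox gene Evx1 at 52.6 kb, was at 0.146 and 0.0835 TPM in KO 1 and KO 2, against 0.374 and 0.935 TPM in WT 1 and WT 2, so that it was lower in both KO libraries. The next on that side, Hibadh, had a mean of 41.5 TPM, and Skap2 and Snx10 on the 3′ side had means of 12.1 and 18.0 TPM. Outside Hoxd, Mtx2 (51.0 TPM, 60.7 kb away on the 3′ side) and Lnpk (23.3 TPM, 88.9 kb away on the 5′ side) stood far above every Hoxd gene, whereas the homeobox gene Evx2, 8.75 kb from Hoxd13, had a mean of 0.0139 TPM. Beside Hoxb, Ttll6, Calcoco2 and Skap1 had means of 0.0369, 0.0715 and 0.722 TPM, and Snx11 one of 22.6 TPM. Beside Hoxc the means lay between 11.7 TPM (Smug1) and 167 TPM (Cbx5), with Calcoco1 and Atp5g2 between them. These flanking genes were the 2 nearest coding genes on each side, a choice made after the Hox values were seen, and Hnrnpa3, the second on the 3′ side of Hoxd, had a mean of 822 TPM. Within the clusters the pseudogene Gm11539 (Hoxb) had a mean of 0.661 TPM and 5730596B20Rik (Hoxa) of 0.0104 TPM, and Gm28308 and Gm28230 were listed at 0 in every library.

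In the comparison of KO with WT none of the 4 Hox genes that could be tested above the filter passed the test. The test, which asks which levels depend on Meis2, was limma on log2(TPM + 1) over the 14496 genes averaging 1 TPM or more, 4 of them Hox genes. By limma 0 of the 4 passed the adjusted threshold of 0.05, as did 0 of all genes tested (0%). At an unadjusted p under 0.05 there were 0 of the 4, against 507 of all genes (3.50%). The median log2 difference of the 4 was 0.15, beside 0.03 for all genes tested, and 3 were higher and 1 lower in KO, beside 8923 higher and 5573 lower.

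Hoxa2 had a difference, KO minus WT, of 0.02 on the scale of log2(TPM + 1) (SE 0.40, 95% interval -1.04 to 1.08; limma adjusted p = 1.00). With median-of-ratios scaling and quantile normalization the difference was -0.011 and -0.027. Hoxb2 differed by -0.03 (SE 0.26, interval -0.72 to 0.65), Hoxb3 by 0.28 (SE 0.26, interval -0.42 to 0.97) and Hoxa3 by 0.27 (SE 0.46, interval -0.94 to 1.49), all with a limma adjusted p of 1.00. The intervals span more than a doubling and a halving for Hoxa2, so they do not show equal levels.

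For Hoxa2, Hoxa3 and Hoxb2 the sign of the difference hung on single libraries. Without KO 1 the Hoxa2 difference was -0.56 (SE 0.16; limma adjusted p = 0.93), and without KO 2 it was 0.61 (SE 0.15; limma adjusted p = 0.92). Hoxa3 was at -0.35 without KO 1 and at 0.89 without KO 2 (limma adjusted p = 0.98). Hoxb2 was at -0.34 without KO 1 and at 0.28 without KO 2. Hoxb3 was higher in both cases, at 0.03 without KO 1 and 0.53 without KO 2. At an unadjusted p under 0.05 there was 1 of the 4 Hox genes without KO 1 (Hoxa2) and 2 without KO 2 (Hoxa2 and Hoxa3). Each of these fits leaves 1 KO library, which is then assumed to vary like the WT libraries.

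**Figure D4:**
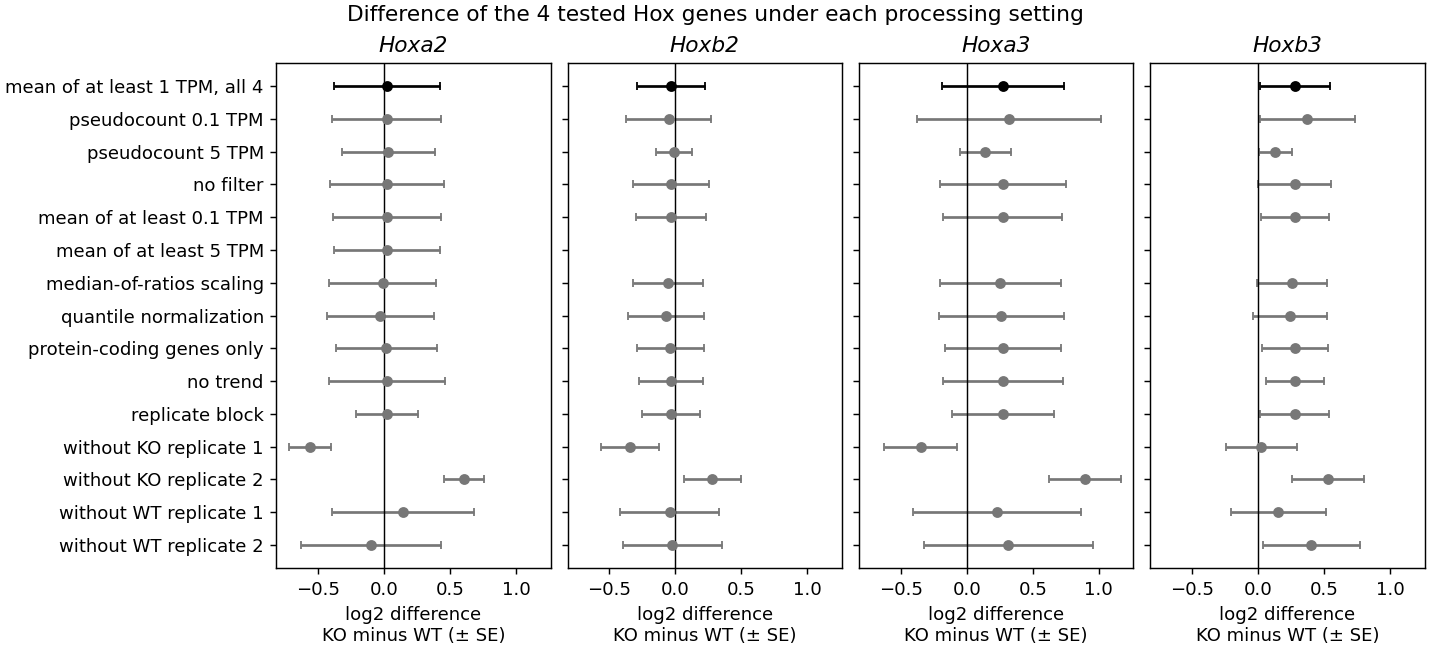
Log2 difference, KO minus WT, with its SE, of the 4 tested Hox genes under each processing setting (black: all 4 libraries, average of 1 TPM or more; no point where the gene fell below the filter). For Hoxa2 the points without KO replicate 1 (-0.56) and without KO replicate 2 (0.61) lie on opposite sides of 0, while changes of pseudocount, filter or scaling move it by little.

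The other members lay below the filter, and a fit with no filter took in the 32 Hox genes above 0 in any library. By limma 0 of these 32 passed, as did 0 of 24346 genes (0%), and 0 of the 32 had an unadjusted p under 0.05. Both KO libraries lay above both WT libraries for 3 of the 32 (9.38%; Hoxa7, Hoxb4 and Hoxb8), against 16.3% of all genes above 0. Both lay below for 3 (9.38%; Hoxb1, Hoxb6 and Hoxc9), against 10.7% of all genes. Each share rests on 3 genes, many values of the 32 are listed at 0, and no difference from the background is read from either. Hoxa7 was at 0.168 and 0.0820 TPM in KO 1 and KO 2, against 0.0300 TPM in WT 2 and a listed 0 in WT 1, and Hoxb8 at 0.102 and 0.0816 TPM in KO 1 and KO 2, against 0.0547 TPM in WT 1 and a listed 0 in WT 2. Hoxb6 was at 0.0217 TPM in KO 1 and listed at 0 in KO 2, against 0.0833 and 0.0308 TPM in WT 1 and WT 2, and Hoxc9 was at 0.0721 and 0.0687 TPM in KO 1 and KO 2, against 0.114 and 0.0957 TPM in WT 1 and WT 2. Apart from Hoxb1 and Hoxb4, these members without overlap were thus all at 0.168 TPM or less in every library. The Hoxb1 difference in this fit was -0.17 (SE 0.081; limma adjusted p = 0.996), which understates a fold change at so low a level.

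The summed Hox level separated the libraries but not the genotypes. It was 58.5 and 26.1 TPM in KO 1 and KO 2, against 40.3 and 35.4 TPM in WT 1 and WT 2, a 2.24-fold range within KO and 1.14-fold within WT. Of the 32 members above 0, 17 were highest in KO 1, 2 in KO 2, 12 in WT 1 and 1 in WT 2. The number above 0 was 29 and 15 in KO 1 and KO 2, against 26 and 21 in WT 1 and WT 2. Over the whole table it was 21685 and 20829 genes in KO 1 and KO 2, against 21207 and 21547 in WT 1 and WT 2. All nonzero values of KO 1, WT 1 and WT 2 were whole in the sixth decimal after multiplication by 4, and those of KO 2 after multiplication by 3, within 0.02 of a step of that decimal. This is the form of means of 4 and of 3 values, and its part in the lower number of Hox genes above 0 in KO 2 was not tested.

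Markers of tissue beside the vesicle also varied among the libraries, but not in the order of the Hox total. The 17 genes of arch and periotic mesenchyme, 15 of them averaging 1 TPM or more, summed to 1128 and 811 TPM in KO 1 and KO 2, against 885 and 759 TPM in WT 1 and WT 2. The sum of the 20 hindbrain neural tube genes was 308 and 242 TPM in KO 1 and KO 2, against 221 and 168 TPM in WT 1 and WT 2. Of the tested genes, 11 of the mesenchyme list were higher and 4 lower in KO, and 6 of the hindbrain list were higher and 2 lower, with 0 called by limma. KO 1 was thus highest in both lists as it was in the Hox total, but KO 2, lowest in the Hox total, was not lowest in either. Most of the hindbrain sum came from Zic1 and Zic2, which mesenchyme also expresses. Of the defining hindbrain genes, Ptf1a and Gsx1 were listed at 0 in every library, and Olig3, Atoh1, Pax7 and Dbx1 were at most at 0.178 TPM. The 12 ganglion neuron genes summed to 367 and 920 TPM in KO 1 and KO 2, against 433 and 678 TPM in WT 1 and WT 2, the reverse of the order of the Hox total. In bulk RNA, fewer cells of a type and less RNA per cell cannot be told apart, and the part of tissue makeup in the Hox values was not tested.

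**Figure D5:**
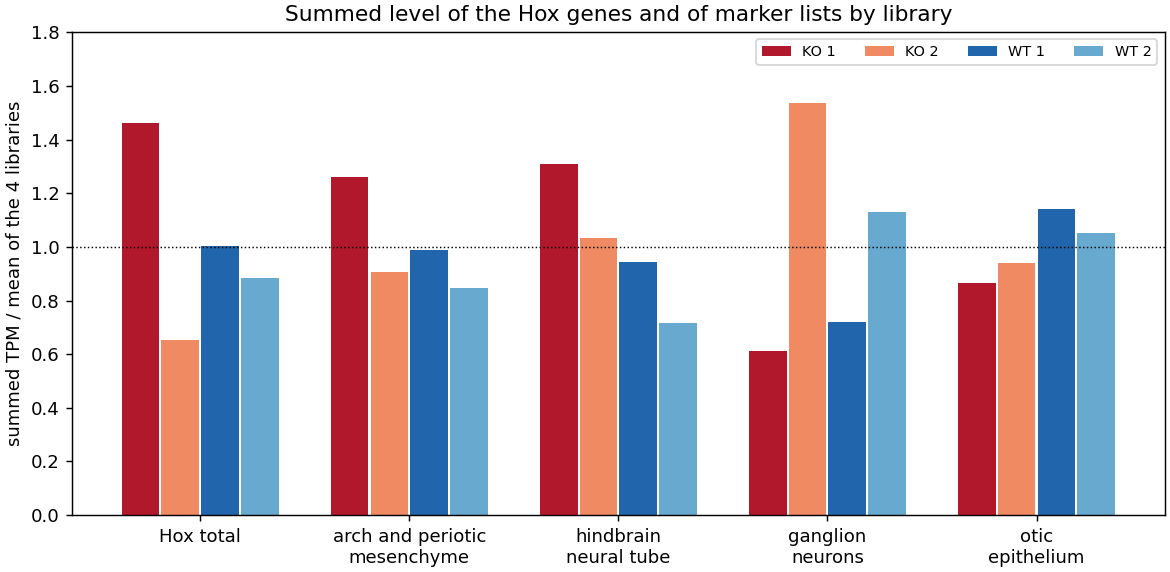
Summed TPM of the 39 Hox genes and of 4 marker lists, each divided by its mean over KO 1, KO 2, WT 1 and WT 2 (dotted line at 1; bars start at 0). The Hox bars run from KO 2 (26.1 TPM) to KO 1 (58.5 TPM), and the ganglion neuron bars run the opposite way, from KO 1 (367 TPM) to KO 2 (920 TPM).

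Other lists of the dissection varied too. Neural crest and glia genes summed to 311 and 281 TPM in KO 1 and KO 2, against 297 and 253 TPM in WT 1 and WT 2, and macrophage genes to 91.7 and 59.7 TPM in KO 1 and KO 2, against 57.8 and 72.0 TPM in WT 1 and WT 2. Endothelial genes summed to 309 and 249 TPM in KO 1 and KO 2, against 246 and 267 TPM in WT 1 and WT 2. KO 1 was highest in all 3. Erythroid genes were highest in WT 2 (20955 TPM), and surface ectoderm genes were lower in both KO libraries, at 231 and 229 TPM, than in WT 1 and WT 2, at 290 and 292 TPM. Krt8, Krt18 and Krt19 made up most of that sum. The epidermal members Krt5, Krt14, Trp63 and Grhl3, picked after their values were seen, were instead highest in KO 1. Other members of the list were not, with Krt15 highest in WT 2 (2.78 TPM, against 1.61 TPM in KO 1). Tfap2c was highest in KO 2 (1.38 TPM) and lowest in KO 1 (1.01 TPM). Krt5 was at 3.28 and 0.112 TPM in KO 1 and KO 2, against 0.149 and 0.0544 TPM in WT 1 and WT 2, and Trp63 at 1.29 and 0.0328 TPM in KO 1 and KO 2, against 0.0439 and 0.221 TPM in WT 1 and WT 2. KO 1 was also the library with the highest Hox total, and the part of such tissue in it was not tested. The otic epithelium list summed to 1397 and 1516 TPM in KO 1 and KO 2, against 1842 and 1694 TPM in WT 1 and WT 2. Oc90 alone gave 561 and 602 TPM of the sums in KO 1 and KO 2, and 912 and 724 TPM in WT 1 and WT 2. Of the 16 genes of that list, all tested, 2 were higher and 14 lower in KO, with 0 called by limma.

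The cofactors of Hox proteins were present in every library, each with a mean above that of every Hox gene but Hoxa2. Of the 9 TALE genes, all tested, 4 were higher and 5 lower in KO, with a median log2 difference of -0.02, and limma called 0. Meis2, the mutated gene, was at 73.2 and 76.6 TPM in KO 1 and KO 2, against 79.0 and 88.7 TPM in WT 1 and WT 2; a value for the whole gene does not show a deleted exon, so it is no check of the labels. Pbx2 had the highest level, at 184 and 174 TPM in KO 1 and KO 2, against 161 and 194 TPM in WT 1 and WT 2. Meis1, a close relative of Meis2, was at 26.8 and 21.95 TPM in KO 1 and KO 2, against 26.5 and 22.9 TPM in WT 1 and WT 2. The genotypes overlapped for Pbx2, Meis1 and every other TALE gene but Meis2 and Pbx3. Meis2 was lower in both KO libraries. Pbx3 was higher in both, at 49.5 and 47.3 TPM in KO 1 and KO 2, against 44.6 and 41.8 TPM in WT 1 and WT 2. Of all genes above 0 in any library, 10.7% were lower and 16.3% higher in both KO libraries.

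Genes that act upstream of the clusters gave no call either. Among 11 regulators of anterior identity 6 were tested, with 3 higher, 3 lower and 0 called by limma (median -0.02). Otx2, which marks head regions that lack Hox expression, was at 13.8 and 18.7 TPM in KO 1 and KO 2, against 22.2 and 25.0 TPM in WT 1 and WT 2 (log2 difference -0.52, SE 0.17; limma adjusted p = 1.00). Gbx2, a factor of the anterior hindbrain and dorsal ear, was at 25.8 and 15.5 TPM in KO 1 and KO 2, against 28.7 and 34.1 TPM in WT 1 and WT 2. The genotypes did not overlap for either gene, but both were named for the smallest limma p of their list, which favours such a separation. Both KO libraries lay below both WT libraries for 10.7% of all genes above 0 in any library. Cdx2 and Cdx4, which activate trunk Hox genes, were listed at 0 in every library.

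Of the 14 retinoic acid genes 6 were higher, 8 lower and 0 called by limma (median -0.03). At an unadjusted limma p under 0.05 there were 4 of the 14, against 507 of all genes tested (3.50%). The list was chosen with earlier results of these data known, so no more is read from this count. Cyp26c1, which degrades retinoic acid, was at 80.9 and 77.1 TPM in KO 1 and KO 2, against 125 and 142 TPM in WT 1 and WT 2. Aldh1a2, which makes it, was at 2.89 and 3.39 TPM in KO 1 and KO 2, against 8.56 and 9.24 TPM in WT 1 and WT 2. Both genes were lower in each KO library, but they were named for the smallest limma p of the list, which favours such a separation. Among genes picked after their values were seen, Aldh1a3 and Rarb were higher in both KO libraries than in both WT libraries. Their log2 differences were 0.68 (SE 0.32) and 0.62 (SE 0.205). Aldh1a1, picked in the same way, was lower in both KO libraries (-0.52, SE 0.22). Of the 18 Polycomb genes 15 were higher and 3 lower (median 0.07), and of the 11 Trithorax genes 9 were higher and 2 lower (median 0.06), with 0 called by limma in either list. Ezh2, the Polycomb methyltransferase, was at 266 and 303 TPM in KO 1 and KO 2, against 287 and 273 TPM in WT 1 and WT 2, and so overlapped between the genotypes.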

How the data were processed

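The authors deposited one table of gene-level TPM for 4 libraries. Salmon 0.9.1 and GRCm38 are named in the submitters' processing notes; no annotation release or gene-level summing step is named there. TPM keeps no depth, so no counting interval is given. IDs were matched to GENCODE M21 (34652 of 34866), which gave symbols and coordinates. The test was limma 3.58.1 (R 4.3.3) on log2(TPM + 1) for every gene averaging 1 TPM or more, modelling genotype alone, with a variance trend. Its p-values are two-sided, adjusted after Benjamini and Hochberg. The fit was tested on simulated data. With 2 libraries per genotype no exact two-sided permutation p can be below 0.333, so totals carry no p. Every Hox gene could be named, along with genes within the clusters, TALE genes and, per other list, up to 2 by smallest p and 2 by highest mean; others are marked as chosen later or belong to marker lists. The members and lists were chosen with earlier results of these data known. Proteins were not used here, and some genes are not reported here.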

Additional observations from a re-analysis of the deposited data

How the results depend on the processing

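The count of 0 genes past the limma threshold held under every other pseudocount, filter, scaling and variance setting tried, and ranged from 0 to 10 when a library was left out (10 without KO 2, 2 without KO 1, none of them a Hox gene). The Hoxa2 difference turned to -0.011 with median-of-ratios scaling and -0.027 with quantile normalization. With a library left out it ranged from -0.56 to 0.61, Hoxa3 from -0.35 to 0.89, Hoxb2 from -0.34 to 0.28 and Hoxb3 from 0.03 to 0.53. The log2 ratio of cluster totals, KO over WT, was 0.16 for Hoxa (-0.59 to 0.65 with a library left out), 0.12 for Hoxb (-0.29 to 0.43), -0.32 for Hoxc (-0.74 to 0.29), 1.08 for Hoxd (-1.04 to 2.18) and 0.16 for all Hox genes (-0.54 to 0.63). The cause was not tested. The 4 genes detected became 3 when the lowest library had to reach 1 TPM. With the replicate block, limma called 0 genes (1178 at an unadjusted p under 0.05) and the Hoxa2 difference stayed at 0.02; same-numbered libraries correlated in their deviations at 0.42 over 14496 genes, and the titles do not say what the numbers share.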
